A study of Caenorhabditis elegans with 2 samples.

Results

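The genes described here are the 4 Caenorhabditis elegans genes of the SL2 spliced leader RNA, sls-2.1, sls-2.2, sls-2.3 and sls-2.4, out of 129 nuclear genes annotated as small nuclear RNA (snRNA) genes and 46890 nuclear genes in all. They were chosen by the deposited binding signal of the nuclear hormone receptor NHR-10 at them, so their signals and ranks are given as a description with no test. Binding was mapped by chromatin immunoprecipitation sequencing (ChIP-seq) in whole L2 larvae, with both sexes pooled, in 1 group of 2 biological replicates and no second condition. The larvae were of strain OP239, genotype unc-119(ed3) III; wgIs239, a transgenic line that makes NHR-10 with GFP and FLAG at its C terminus, and the age was recorded as unknown. Whole animals were used, so the cells in which the receptor was bound cannot be told apart. For each gene, every region with its summit within 1000 bp was taken from 4 deposited lists on ce11, namely replicate 1, replicate 2, both pooled, and a thresholded list made with IDR (irreproducible discovery rate), which scores how well the ranks of replicates match.

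Most nematode messenger RNAs receive a short leader at their 5′ end by trans-splicing, in which the leader is cut from a separate small RNA and joined to the first exon of the message. SL1 is added mainly to genes with a promoter of their own, and SL2 mainly to the downstream genes of operons, which share a promoter and are separated into single messages as SL2 is added. The SL2 RNA works as a small ribonucleoprotein with Sm proteins, like the snRNAs of the spliceosome. Genes of such RNAs carry a proximal sequence element upstream of the start, which is bound by the SNAPc complex. NHR-10 is known for its part in switching on the propionate shunt, and the SL2 genes are no part of that pathway.

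The sequences of 3 of the 4 RNA genes, read from the RefSeq copy of WBcel235, show what the set shares. The 22 capitals at the left are the leader that is spliced to other messages, and the small letters after them are the part that stays behind.
sls-2.1, chromosome II, plus strand: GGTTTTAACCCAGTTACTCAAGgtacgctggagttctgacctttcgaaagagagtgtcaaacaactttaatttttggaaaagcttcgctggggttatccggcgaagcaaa
sls-2.2, chromosome II, plus strand: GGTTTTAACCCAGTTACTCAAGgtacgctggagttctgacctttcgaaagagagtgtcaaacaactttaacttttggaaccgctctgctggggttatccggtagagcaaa
sls-2.3, chromosome II, minus strand: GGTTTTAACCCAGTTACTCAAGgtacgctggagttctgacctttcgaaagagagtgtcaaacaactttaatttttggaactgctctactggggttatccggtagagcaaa
The leader was identical in all 4 genes and in none of the 14 other annotated sls-2 genes, which make variants of it. sls-2.8 on chromosome III, for example, begins ggttttaacccagtttaaccaagg. Each of the 4 RNA genes is 110 bases long, the first 51 bases were the same in all 4, and 98 of the 110 positions held the same base in all 4. Pairs of genes matched at 100 to 107 of the 110 positions, with sls-2.2 and sls-2.3 the most alike.

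The 100 bases before the RNA start are shown because they hold the longest stretch that the 4 genes share outside the RNA itself. The 15 capitals mark that stretch.
sls-2.1, upstream: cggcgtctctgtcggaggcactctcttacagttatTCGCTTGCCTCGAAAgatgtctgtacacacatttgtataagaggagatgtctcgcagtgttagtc
sls-2.2, upstream: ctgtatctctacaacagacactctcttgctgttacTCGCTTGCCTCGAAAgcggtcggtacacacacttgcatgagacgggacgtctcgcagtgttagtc
sls-2.3, upstream: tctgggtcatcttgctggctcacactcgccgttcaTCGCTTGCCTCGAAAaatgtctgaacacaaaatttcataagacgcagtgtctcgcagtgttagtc
sls-2.8, upstream, for comparison: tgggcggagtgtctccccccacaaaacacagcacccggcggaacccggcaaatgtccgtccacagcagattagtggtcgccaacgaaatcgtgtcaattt
The word TCGCTTGCCTCGAAA began at position -65 in each of the 4 SL2 genes, counted from the RNA start. On both strands it occurred 4 times in the nuclear genome, once at each SL2 gene. In windows of the same length it was therefore in 0 of 14 other sls-2 genes, 0 of 99 snRNA genes that are not spliced leader genes, and 0 of 19973 protein-coding genes. Of its parts, none longer than 7 bases was found upstream of another sls-2 gene. The other word of at least 6 bases shared by the 4 genes, TCTCGC, began at position -16 in the 3 genes shown and at -67 in sls-2.4, where it overlaps the longer word. It was in 4 of the 14 other sls-2 genes, 7.07% of the other snRNA genes and 3.03% of the protein-coding genes. Upstream windows of the 4 genes matched at 57 to 79 of 100 positions in pairs. Downstream windows of 100 bases matched at 25 to 40.

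**Figure D1:**
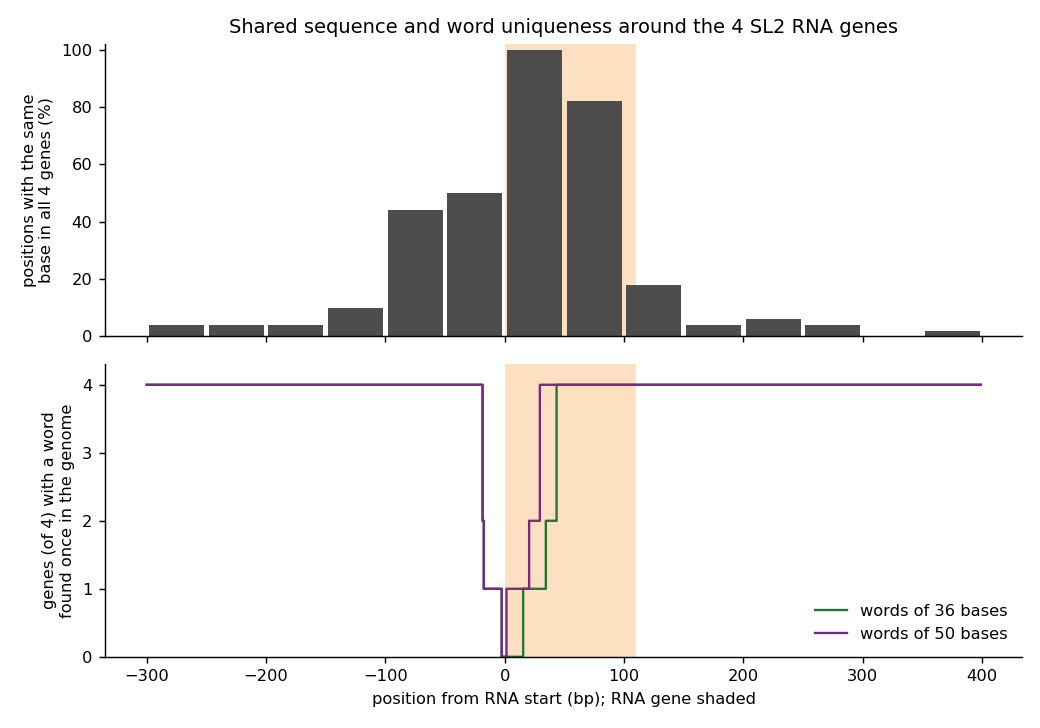
Shared sequence around the 4 SL2 RNA genes by distance from the RNA start in bp, with the RNA gene shaded. Upper bars give the percent of 50 positions with the same base in all 4 genes; the lines below give in how many of the 4 genes a word of 36 or 50 bases that starts at a position is found once in the nuclear genome. Sharing was 100% in the first 50 bases of the RNA, 44% and 50% in the 2 bars just upstream, and at most 10% further upstream, and words were repeated from position -18 into the RNA gene.

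All 4 genes had a thresholded peak within 1000 bp, against 13.2% of the 129 snRNA genes (10.4% of the 125 others) and 2.35% of 19973 protein-coding genes by distance to their start. The genes were picked for these peaks, so nothing is read from the count. The thresholded list held 491 regions, or 1.64% of the 30000 pooled regions, and these were the 491 of highest pooled signal. A pooled region was near 54.3% of snRNA genes, a replicate 1 region near 51.2% and a replicate 2 region near 48.1%. The 4 SL2 genes had a region in each list. They shared 6 thresholded peaks, since sls-2.2 and sls-2.3 lie 456 bp apart on chromosome II and share their peaks.

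The signal at sls-2.1, at chrII:5844865-5844974 on the plus strand, was the highest of the set. Its main pooled summit lay 37 bp upstream of the RNA start, at 5844828, with signal 139.7 and rank 15. In replicate 1 the matching region had signal 30.5 and rank 18, 44 bp upstream. In replicate 2 it had signal 118 and rank 14, 28 bp upstream. The scaling between the lists was not stated, so signal is read within a list, where this region stood at 9.78 times the list median in replicate 1, 17.2 times in replicate 2 and 16.7 times in the pooled list. Both replicates thus placed it near the top of their lists and just upstream of the RNA start.

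A second thresholded peak lay on the other side of sls-2.1, with its summit 164 bp downstream of the RNA start and signal 80.0 (rank 48). Replicate 2 had a region there with signal 77.9 and rank 30, at 178 bp. Replicate 1 had only a region of signal 3.79 and rank 7432 at 233 bp, or 1.21 times its list median. The main replicate 1 region, of signal 30.5, ended at 5845045 and so covered the pooled downstream summit at 5845029. The downstream peak was thus a separate high region in replicate 2 only. Its height in replicate 1 cannot be read apart from the main region. The main peak of sls-2.1 was deposited 105 bp wide, while all but 18 of the 491 thresholded regions were 390 bp wide.

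sls-2.4, at chrI:4172206-4172315 on the plus strand, had the same layout. Its main pooled summit was 25 bp upstream of the RNA start, with signal 131 and rank 18, and a second thresholded peak lay 175 bp downstream with signal 60.8 and rank 83. In replicate 2 the upstream region had signal 104 and rank 17, and the downstream region signal 57.0 and rank 64, at 37 bp upstream and 164 bp downstream of the start. Replicate 1 had a single high region, with signal 28.7 and rank 20, whose summit was 97 bp into the RNA gene between the pooled pair. Its other region within 1000 bp had signal 3.37 and rank 9759. Each replicate thus ranked the locus near the top of its list, but only replicate 2 divided it into a pair of regions.

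sls-2.2, at chrII:5543598-5543707 on the plus strand, and sls-2.3, at chrII:5544164-5544273 on the minus strand, point towards each other. The higher peak of the locus lay 100 bp into sls-2.2 with pooled signal 108 and rank 24. Replicate 2 had a pair of regions here as well, with signal 100.5 and rank 18 at 31 bp upstream of the sls-2.2 start, and signal 55.7 and rank 66 at 172 bp downstream of it. Replicate 1 had a single region, with signal 20.8 and rank 33 at 210 bp downstream. The highest regions of the replicates at sls-2.2 therefore differed more in place than those at sls-2.1. The replicate 1 region lay nearer the lower region of replicate 2 than the higher one. The pooled summit lay between the replicate 2 pair.

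sls-2.3 had the lowest signal at its own start. The peak at its own start, 69 bp upstream, had pooled signal 29.8 and rank 411, close to the lowest thresholded signal of 27.4. The highest region left out of the thresholded list had signal 27.3. In replicate 1 the region at sls-2.3 had signal 8.97 and rank 460, 99 bp upstream, and in replicate 2 signal 18.03 and rank 782, 43 bp upstream. In multiples of the list median these were 2.87 in replicate 1, 2.63 in replicate 2 and 3.55 in the pooled list. The sls-2.3 RNA matched that of sls-2.2 at 107 of 110 positions, while the pooled signal nearest its start was 29.8 against 108 at sls-2.2. With 2 replicates and no common scale no error can be put on that gap, but sls-2.2 stood above sls-2.3 in each list.

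**Figure D2:**
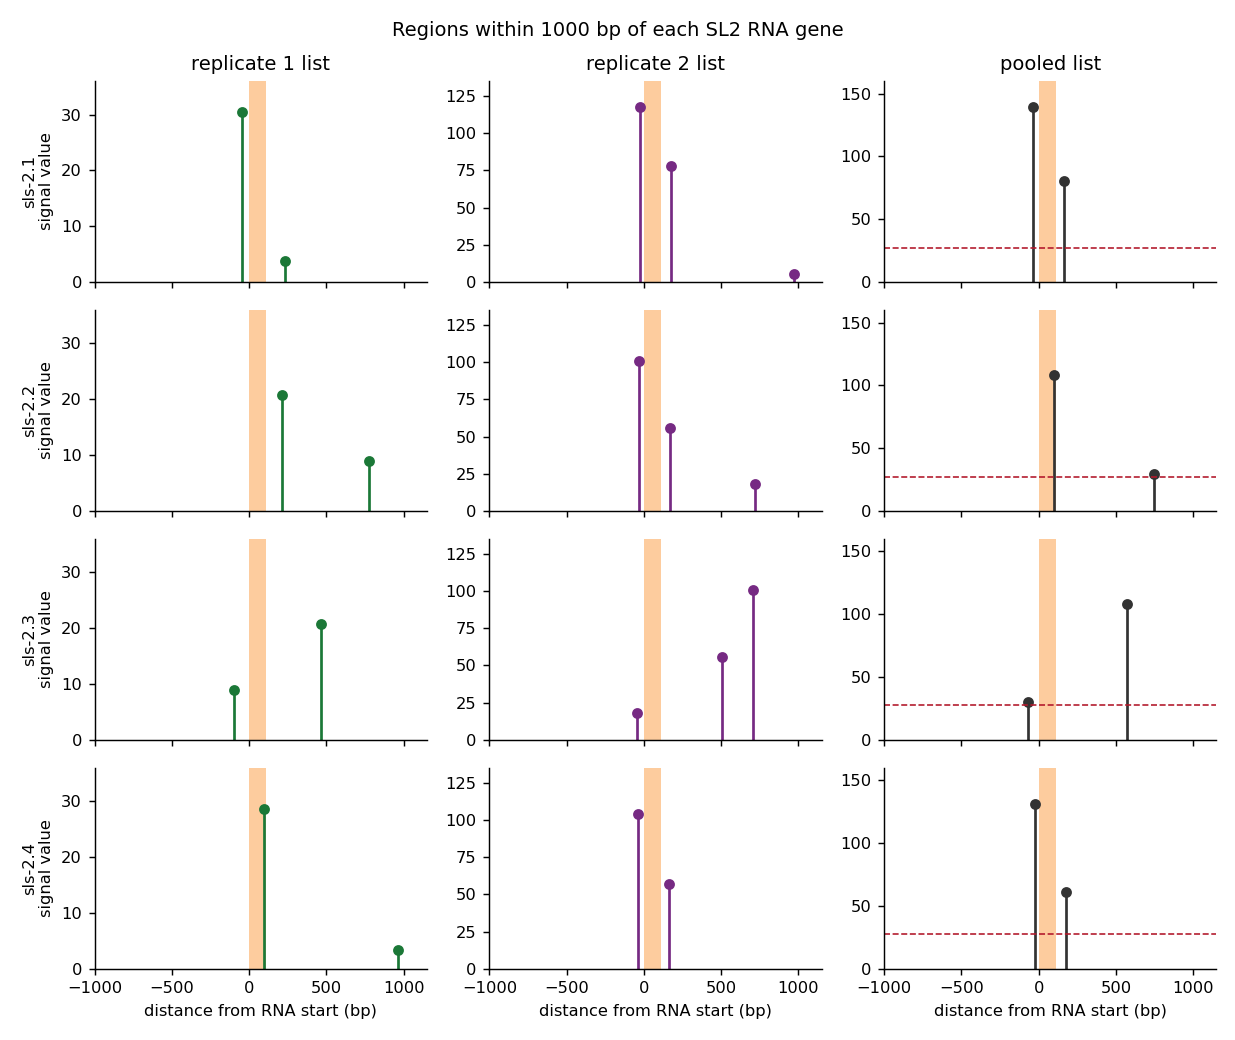
Signal value of every region within 1000 bp of each SL2 RNA gene (rows) in the replicate 1, replicate 2 and pooled lists (columns), plotted at the distance of its summit from the RNA start in bp, with the RNA gene shaded. The dashed line is the lowest thresholded signal, 27.4; the replicate 2 pair flanks sls-2.1, sls-2.2 and sls-2.4, while sls-2.3 has a low region at its own start and the regions of sls-2.2 downstream.

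Ordered by the pooled region nearest the start, the genes ran sls-2.1 (139.7), sls-2.4 (131), sls-2.2 (108) and sls-2.3 (29.8). Replicate 2 gave the same order, with signals of 118, 104, 100.5 and 18.03. In replicate 1 the order was also the same, with 30.5, 28.7, 20.8 and 8.97. Whether sls-2.1, sls-2.4 and sls-2.2 differ from each other cannot be judged from 2 replicates. The region at the sls-2.3 start stood well below these 3 in every list, at ranks 411 to 782.

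**Figure D3:**
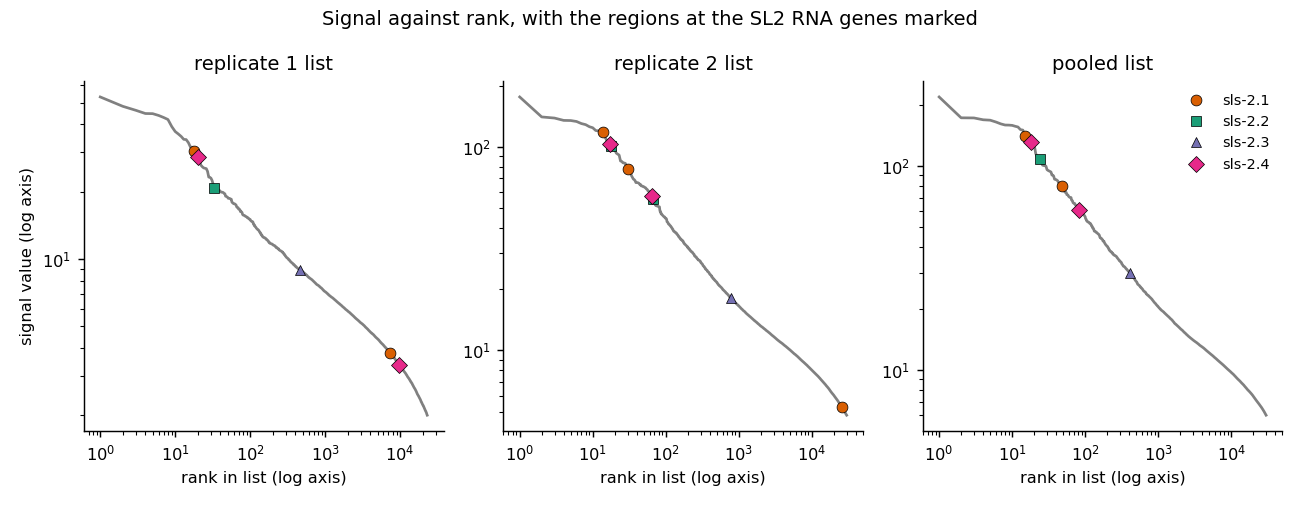
Signal value against rank, both on log axes, for all regions of the replicate 1, replicate 2 and pooled lists (grey line), with the regions near the SL2 genes marked. A region shared by sls-2.2 and sls-2.3 is marked for the gene whose start is nearer; the highest regions of sls-2.1 and sls-2.4 fall at ranks 14 to 20 in the lists, and the region at sls-2.3 at ranks 411 to 782.

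The paired summits at sls-2.1 and sls-2.4 were 201 and 200 bp apart. No summits in any of the 4 lists were closer than 199 bp, so both pairs stood at about the smallest spacing the lists hold. Pairs of thresholded summits within 300 bp of each other occurred 7 times, and 2 of the 7 flanked sls-2.1 and sls-2.4. Outside the 1000 bp window, the nearest pooled region was 1052 bp from sls-2.4 with signal 22.6, 1321 bp from sls-2.1 with signal 6.59, and 4000 bp from sls-2.2 with signal 14.3. The nearest other thresholded peak was 28043 bp from sls-2.3, 98266 bp from sls-2.4 and 183564 bp from sls-2.1. The thresholded peaks at the SL2 genes thus had no other thresholded peak within 28043 bp of the genes.

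Reads from near-identical RNA genes cannot always be placed, so the uniqueness of the sequence is given beside the positions. Of 36-base words starting inside the RNA gene, 60% were found once in the genome for sls-2.1 and sls-2.3, 68.2% for sls-2.2 and 85.5% for sls-2.4. Repeated words of 36 bases began between positions -18 and 43 at the 4 genes, and in a second stretch from 402 to 437 at sls-2.1. All words starting in the 100 bases downstream of the gene were found once, and of those starting in the 100 bases upstream 82% to 98%. Neither the read length nor the handling of repeated reads is given in the sources used here, and their part in where the summits fell was not tested.

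No protein-coding gene started within 500 bp of any of the 6 pooled summits. The nearest start to the sls-2.1 summit was that of ZK1248.17, 713 bp away, and the summit lay beyond its 3′ end. The nearest to the sls-2.4 summit was egg-5, which acts in the egg-to-embryo transition, 592 bp away, with the summit upstream of that start. For the sls-2.2 summit it was ins-13, an insulin-like peptide gene, 1166 bp away, and for the peak at the sls-2.3 start again ins-13, 522 bp away, with the summit again beyond its 3′ end. Non-coding genes of the opposite strand overlapped 3 of the 4 by 101 bp, namely C17C3.23 at sls-2.2, C17C3.22 at sls-2.3 and R12E2.18 at sls-2.4. ChIP-seq regions carry no strand, so signal at these genes cannot be divided between the members and their antisense partners.

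In the pooled order the sls-2.1 peak stood directly below a peak on X (150.1) and above one on X near fbxb-58 (139.4). The protein-coding start nearest the former was that of F19H6.5, 1747 bp away. The sls-2.4 peak stood below one on X (134.6) and above one on IV near Y17G9B.5 (129.6). The peak on X was far from any protein-coding start, the nearest being that of C41A3.2, 15187 bp away. The sls-2.2 peak stood below that of the ribosomal protein gene rpl-15 (109.9) and above one on X near ins-39 (106.8). The peak at the sls-2.3 start stood above that of dld-1 (29.7), which encodes a mitochondrial dihydrolipoamide dehydrogenase.

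Signal at the other sls-2 genes, which make variants of the SL2 leader, was lower and more uneven. Of these 14 genes, 5 had a thresholded peak within 1000 bp, 11 a pooled region and 3 none, against 4 of 4 SL2 genes with both. The highest pooled signal within 1000 bp ran from 108 to 139.7 with a median of 119 at the SL2 genes, and from 6.52 to 79.7 with a median of 23.4 at the 11 others with a region. These values are not all separate, since sls-2.2 and sls-2.3 share the region of 108. Among the others sls-2.5, sls-2.16 and sls-2.18 share that of 34.3, and sls-2.14 and sls-2.15 that of 18.5. The ranges of the highest values did not overlap, although the region at the start of sls-2.3 (29.8) falls inside the range of the others. The SL2 genes were chosen for high signal, so this difference carries no test.

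The highest of the variant genes was sls-2.8, at chrIII:12250465-12250575, with pooled signal 79.7 and rank 50 and its summit 7 bp upstream of the RNA start. Replicate 1 gave it signal 16.97 and rank 69, and replicate 2 gave it signal 62.9 and rank 53. The protein-coding gene Y75B8A.23 starts 202 bp from that summit. sls-2.9 had a thresholded peak 30 bp upstream of its start with signal 32.1 and rank 342, and ranked 2434 in replicate 1 and 303 in replicate 2. The peak of signal 34.3 and rank 295 near sls-2.16 lay 142 bp downstream of that gene's start, and the 1000 bp window also gave it to sls-2.18 and sls-2.5. The main summits of sls-2.1 and sls-2.4 were 37 and 25 bp upstream of the RNA, and those of sls-2.8 and sls-2.9 were 7 and 30 bp upstream. At sls-2.15 the highest pooled summit was 3 bp upstream, but at sls-2.2, sls-2.16 and sls-2.7 it was 100, 142 and 177 bp downstream of the start. Replicate 1 placed its summits at sls-2.4 and sls-2.9 97 and 33 bp into the RNA gene. The highest summits of the family thus shared no single position. Pairs of pooled summits within 300 bp of each other also flanked sls-2.7 (-25 and 177 bp from the start) and sls-2.9 (-30 and 172 bp). sls-2.8 was flanked likewise, at -7 and 221 bp, and no other variant gene was. The downstream summits of these pairs were not thresholded. sls-2.12, sls-2.13 and sls-2.17 had no pooled region within 1000 bp.

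**Figure D4:**
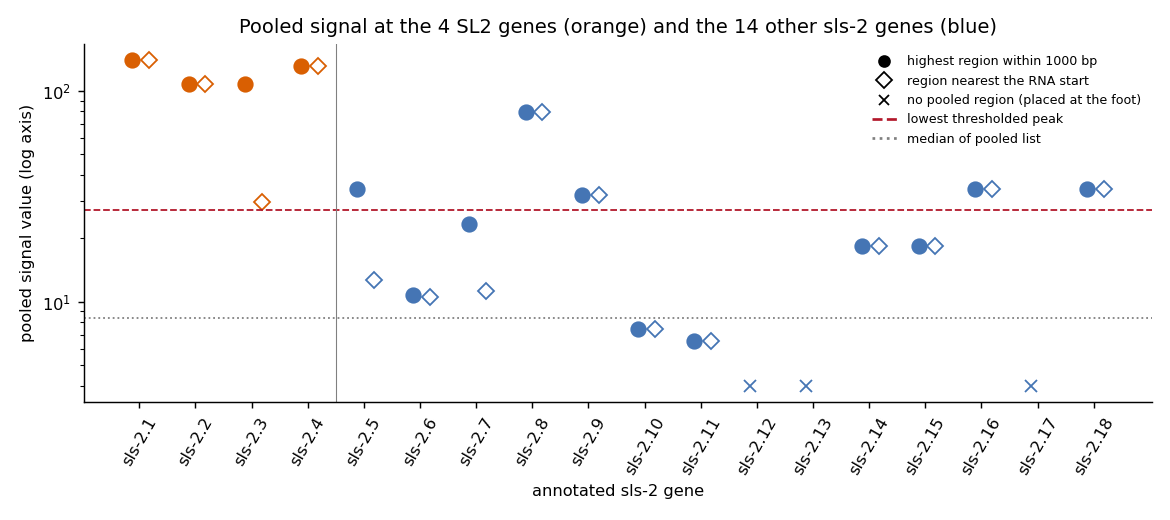
Pooled signal value on a log axis at the 4 SL2 genes (orange, left) and the 14 other annotated sls-2 genes (blue), as the highest region within 1000 bp (filled) and the region nearest the RNA start (open); crosses mark genes with no pooled region. The dashed line is the lowest thresholded signal, 27.4, and the dotted line the pooled median, 8.38. By the highest region, sls-2.8 comes nearest to the SL2 genes among the variant genes. By the region nearest the start, sls-2.8, sls-2.9, sls-2.16 and sls-2.18 lie above sls-2.3.

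The genes of SL1, the leader of the other trans-splicing class, had no thresholded peak. They form a tandem array on chromosome V with 12 annotated entries, and 1 of them had a pooled region within 1000 bp, with signal 7.79, below the pooled median of 8.38. Reads from such repeated genes may not have been placed, so the lack of regions is no measure of binding there.

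Of 7 words searched on both strands in the 200 bp around the 6 thresholded summits near SL2 genes, 2 were found. AGGTCA, a half-site of nuclear receptors, was in 3 of the 6 windows, those of the main summits of sls-2.1, sls-2.4 and sls-2.2, against 4.68% of thresholded and 4.86% of other pooled regions. In windows of 100 bp it was in 0 of the 6, against 3.46% and 2.32%. In all 4 RNA genes the word lies inside the transcribed sequence, on the opposite strand at bases 37 to 42, where it is also found in 2 of the 14 other sls-2 genes. GACGCA was in 1 window, that of the peak at the sls-2.3 start, against 29.1% of thresholded and 5.28% of other pooled regions. GAGAGA was in none of the 6, against 39.7% of thresholded and 13.3% of other pooled regions. AGTTCA was in none, against 5.5% and 12.8%, TGATAA in none, against 9.57% and 19.3%, CACGTG in none, against 8.55% and 3.72%, and TGACGT in none, against 8.55% and 6.23%. Bases 37 to 42 fall within the first 51 bases, which are the same in all 4 genes, so the 3 matches of AGGTCA were not independent. A match is a description of the sequence, and with 6 windows the shares were not tested.

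GC content of the 200 bp windows was 50% at the main summit of sls-2.1, 47.5% at that of sls-2.4, 38% at that of sls-2.2 and 46% at the peak of the sls-2.3 start, against medians of 44% in thresholded and 35% in other pooled regions. At the downstream summits it was 30.5% for sls-2.1 and 37% for sls-2.4. At sls-2.1 and sls-2.4 the upstream window was thus richer in GC than the downstream one, while the sls-2.2 window lay below the thresholded median.

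Proteins of trans-splicing, not of SL2 alone, were looked at as a list of 25 genes, of which snpc-3.3 is not annotated as protein-coding. Of the other 24, 2 (8.33%) had a thresholded peak within 1000 bp of the start, against 2.35% of all protein-coding genes, and 16 had a pooled region, against 50.2%. With 2 genes called this is a count and no sign of a pattern. Among the 7 Sm proteins, which form the core of the SL2 and spliceosomal particles, snr-4 had a peak 345 bp upstream with signal 39.3 and rank 210. Replicate 1 gave it signal 15.4 and rank 92, and replicate 2 gave it signal 26.4 and rank 320. The same summit lay 50 bp upstream of the snRNA gene T11F9.15, on chromosome V. The other 6 Sm genes had pooled signals between 6.53 and 16.4.

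The other gene with a peak was cpf-2, a subunit of the cleavage stimulation factor CstF, which acts in forming the 3′ end of the upstream message and is known to associate with the SL2 particle. Its summit lay 163 bp upstream with signal 31.7 and rank 355, against rank 1786 and signal 6.05 in replicate 1 and rank 388 and signal 24.2 in replicate 2. The other CstF genes, cpf-1 and suf-1, had pooled signals of 12.2 and 12.6. Of the 8 genes of SNAPc and the TATA-binding protein only snpc-4 had a pooled region, with signal 11.0. The genes sna-1, sna-2 and sut-1, listed for proteins of spliced leader particles in general, had 6.28, 7.72 and 9.43. Of the genes that recognise the 3′ splice site uaf-2 had 19.1, sfa-1 14.4 and uaf-1 none.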

How the data were processed

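The authors deposited region lists in the narrowPeak layout, with 1 signal value per region, never negative, as their own measure of enrichment. Per the deposited notes, each replicate list came from its own alignment and a control, the pooled list from the alignments of both with the control, and the thresholded list from these 3 by IDR. The sources used here do not give the caller, aligner, IDR cutoff or scaling, and the lists hold no read counts, so depth is unknown and no interval is given. The ce10 lists and the control were not analysed here.

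Summits are start plus the offset in the last column. Ranks run from the highest signal within a list. Gene positions and starts are those of Ensembl release 115 (WBcel235, the same assembly as ce11), and sequence from RefSeq on the same assembly. All regions end inside its chromosomes. Named genes are the 4 members, sls-2 genes with a thresholded peak, the 5 other snRNA genes of highest signal, protein-coding genes nearest the summits, and called genes of the protein list; others were chosen after their values were seen. Members and lists were chosen with earlier results of these data known. Alternatives were other distances, a stricter threshold, each replicate left out and other windows. Nearness calls by distance to a protein-coding start were tested on simulated data. That test did not cover calls by distance to the whole gene, which were used for the snRNA genes. Python 3.11.15, numpy 2.4.6, pandas 2.3.3 and matplotlib 3.10.9 were used.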

Additional observations from a re-analysis of the deposited data

How the results depend on the processing

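The count of 4 SL2 genes with a peak was the same in all 6 alternatives tried, including the 491 highest regions of either replicate. sls-2.3 counted only through the peak at sls-2.2 in the 50% of peaks of highest signal and in the 491 highest regions of replicate 2, since the region at its own start ranked 411 in the pooled list and 782 in replicate 2. The choice of region mattered for sls-2.3, where the region nearest the start had signal 29.8 against 108 for the highest within 1000 bp. Leaving out each replicate, ranks ran from 14 to 18 at sls-2.1, 17 to 20 at sls-2.4 and 18 to 33 for the peak shared by sls-2.2 with sls-2.3. The sls-2 genes with a peak, 9 of 18, numbered 5 in the 50% of peaks of highest signal and 5 to 9 with a replicate left out, the lower count coming from replicate 1. The protein list had 1 gene in the stricter set and 1 to 2 with a replicate left out. Background shares were 1.21% of protein-coding and 6.98% of snRNA genes in the stricter set, and 8.53% to 13.2% of snRNA genes with a replicate left out. In 100 bp windows AGGTCA was in 0 of the 6. In 200 bp upstream, 5 words of at least 6 bases were shared, and the longest again had 15. Depth is unknown, so weak regions cannot be told from background, and the cause of these shifts was not tested.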

Other observations

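Of 99 snRNA genes that are not spliced leader genes, 8 had a thresholded peak within 1000 bp, and the 5 of highest pooled signal were R07E5.16 (gene WBGene00014543, 96.0), sup-6 (64.3), F38E11.11 (WBGene00014366, 45.2), T11F9.15 (39.3) and M163.13 (35.3). The highest summit at R07E5.16 lay at position -44 from the RNA start, at T11F9.15 at -50 and at M163.13 at -32, while at sup-6 and F38E11.11 it lay 206 and 148 bp downstream of the start. Replicate 1 ranked R07E5.16 at 21 and sup-6 at 4466, and replicate 2 at 41 and 50.

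The 7 close pairs of thresholded summits fell at snRNA genes in 4 cases. Besides sls-2.1 and sls-2.4 these were sup-6, known for suppressor alleles of a U1 snRNA gene, with summits 202 bp apart (64.3 and 51.1), and R07E5.16, with summits 204 bp apart (96.0 and 50.3). The other 3 pairs, 1 on IV and 2 on X, had no snRNA, snoRNA, tRNA, rRNA or miRNA gene within 300 bp. In the pooled list 8.84% of 29994 gaps between neighbouring summits were of 300 bp or less. That share describes spacing, not nearness to snRNA genes. The share of all thresholded peaks that lie at snRNA genes was not computed, and 2 of the 4 pairs flank members chosen for their peaks. Nothing is therefore read from the 4 of 7.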
